A study of Mus musculus with 57 samples.

Results

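Cyp2a4, Cyp2a5, Cyp2b9, Cyp2b10 and Cyp2b13 are 5 closely related mouse cytochrome P450 genes of the Cyp2 cluster on chromosome 7, and they are 5 of the 54307 genes in the deposited table. They were taken by symbol, and each symbol matched 1 Ensembl gene: ENSMUSG00000074254 (Cyp2a4), ENSMUSG00000005547 (Cyp2a5), ENSMUSG00000040660 (Cyp2b9), ENSMUSG00000030483 (Cyp2b10) and ENSMUSG00000040583 (Cyp2b13). Their RNA was measured in the livers of 57 male wild-type C57BL/6JJcl mice, 40 given a liver toxicant and 17 given a vehicle. The series was made to assess how well reference-based deconvolution works on liver injury, and here each toxicant was set against the vehicle of its route and against all 17 vehicle mice.

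All mice were 6 weeks old at the start, were acclimatised for 1 week, were fasted for 12 h before dosing, and were killed 24 h after it. By gavage, 4 mice received alpha-naphthyl isothiocyanate (ANIT), 7 received 4,4'-methylene dianiline (MDA), 6 received acetaminophen (APAP), 5 received thioacetamide (TAA) and 13 received the methylcellulose vehicle (0.5%). By intraperitoneal injection, 7 mice received carbon tetrachloride (CCl4), 4 galactosamine (GAL) and 2 saline. By the tail vein, 7 mice received concanavalin A (ConA) and 2 saline. Corn oil is a further vehicle in the labels, which do not say for which compound. No corn oil control was analysed, so for a compound dissolved in oil the effects of compound and oil cannot be told apart. The doses of the compounds are not given in the sources used here.

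Cytochrome P450 enzymes of the CYP2A and CYP2B families oxidise drugs, steroids and other small molecules in the endoplasmic reticulum, with electrons from the reductase encoded by Por. Cyp2b10 is the standard target gene of CAR (Nr1i3), the nuclear receptor that phenobarbital activates and that binds DNA with RXR. Cyp2a5, the coumarin 7-hydroxylase, is known for its induction by several liver toxicants and as a target of NRF2 (Nfe2l2), the regulator of antioxidant genes. Cyp2a4, a steroid 15-alpha-hydroxylase, and Cyp2b9 and Cyp2b13 are known as female-biased genes that the male pattern of growth hormone secretion holds low.

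The near identity of some of these genes bears on every value, so their sequences are shown first. The promoter bases come from the RefSeq table, which matched 5 of the 5 genes. Its build is GRCm38.p6, while the counts were made with GRCm39 per the submitters' processing notes. Each stretch below is the 120 bases before the annotated start, on the plus strand of chromosome 7, and capitals mark the letters TTGCATAA, TTGTATAA, CAAAGTCC and TATAAA where a search on both strands found them.
Cyp2a5, chr7:26835219-26835338: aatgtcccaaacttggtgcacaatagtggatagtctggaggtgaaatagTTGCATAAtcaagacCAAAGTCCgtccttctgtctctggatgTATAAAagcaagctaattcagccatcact
Cyp2a4, chr7:26307072-26307191: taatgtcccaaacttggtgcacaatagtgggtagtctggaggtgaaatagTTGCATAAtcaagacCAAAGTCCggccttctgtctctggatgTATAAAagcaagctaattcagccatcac
Cyp2b10, chr7:25897538-25897657: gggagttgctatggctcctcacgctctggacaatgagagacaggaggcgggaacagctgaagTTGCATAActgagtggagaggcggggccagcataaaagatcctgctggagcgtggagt
Cyp2b9, chr7:26173289-26173408: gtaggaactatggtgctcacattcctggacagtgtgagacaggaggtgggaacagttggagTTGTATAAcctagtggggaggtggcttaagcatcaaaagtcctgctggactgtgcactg
The stretch of Cyp2b13, chr7:26061375-26061494, has the same letters as that of Cyp2b9.

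Over the 250 bases before the start, Cyp2a4 and Cyp2a5 were 97.6% identical, Cyp2b9 and Cyp2b13 99.2%, and Cyp2b9 and Cyp2b10 70.0%. A Cyp2a promoter and a Cyp2b promoter were 45.02% to 51.1% identical. TTGCATAA, a C/EBP-like element, lay in Cyp2a4, Cyp2a5 and Cyp2b10, and 0.694% of 32851 promoters of the same length held it. TTGTATAA stood at about the same place in Cyp2b9 and Cyp2b13 and was found in 0.536% of promoters. CAAAGTCC, an HNF4-like element, lay in both Cyp2a genes and in 1.20% of promoters, and TATAAA lay in both and in 12.4%. The nuclear receptor half-site AGGTCA was found farther upstream in Cyp2b9 and Cyp2b13 and in 14.02% of promoters. The DR4 element, a spaced direct repeat of that half-site, the STAT5 letters TTCNNNGAA and the antioxidant element core TGACNNNGC were in none of the 5 windows. These letters are in 0.0152%, 7.02% and 10.2% of promoters, and a match or its absence is a description of the window alone.

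The coding sequences of Cyp2a4 and Cyp2a5 differ at 23 of 1482 bases in the GENCODE M21 transcripts, an identity of 98.4%. The 90 bases with the most differences, coding bases 580 to 669 across exons 4 and 5, hold 5 of them, and capitals mark these.
Cyp2a5: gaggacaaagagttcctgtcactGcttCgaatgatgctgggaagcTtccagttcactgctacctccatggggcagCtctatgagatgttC
Cyp2a4: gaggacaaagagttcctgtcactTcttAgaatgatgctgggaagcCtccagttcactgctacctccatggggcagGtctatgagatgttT
Cyp2b9 and Cyp2b13 were 92.7% identical over their coding bases, Cyp2b10 and Cyp2b13 87.2%, and Cyp2b9 and Cyp2b10 86.2%. Of the 31-base words of the Cyp2a4 transcript, 55.9% also occurred in another of the 5, against 44.9% for Cyp2a5, 30.5% for Cyp2b13, 20.3% for Cyp2b9 and 13.7% for Cyp2b10. A read that lies wholly within shared bases does not tell the copies apart, so the split between them is an estimate. How many reads this touches was not measured.

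Estimated counts summed to between 13826343 and 35075809 per liver (median 21532116), and mitochondrial genes took 5.11% to 39.3% of them. Levels are given as CPM, estimated counts per 1000000 after TMM scaling over all 57 livers. A gene is called changed where its adjusted p was under 0.05 in edgeR's quasi-likelihood test of 2 groups, and log2 changes are given with their standard errors. The hepatocyte markers Alb, Apoa1, Ttr, Fgb, Ahsg, Serpina1c and Tat together made up 59134 to 129400 CPM in gavage vehicle livers. This sum was lower after CCl4 (25024 to 34803) and GAL (28316 to 35563) than in their saline controls (65364 and 70069). In bulk tissue, fewer cells of a type and less RNA per cell cannot be told apart. With 2 control mice, tests of the injected compounds are imprecise.

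Cyp2b10 rose after MDA, ANIT and CCl4 and fell after APAP, TAA, GAL and ConA, so it was called in 7 of 7 comparisons with the route vehicle. In 6 of the 7, the treated and vehicle livers did not overlap. Cyp2a5 rose after the same 3 compounds and fell after ConA. Cyp2b9 rose after none and fell after 5, Cyp2b13 rose after none and fell after 2 of the 4 in which it was tested, and Cyp2a4 rose after TAA and fell after MDA. Over all genes tested, 28.2% were called with ANIT, 31.8% with APAP, 33.8% with MDA, 50.5% with TAA, 33.5% with CCl4, 28.5% with GAL and 34.2% with ConA. Of the 5 enzymes, 2 of 5 tested were called with ANIT, 2 of 5 with APAP, 4 of 4 with MDA, 4 of 5 with TAA, 3 of 4 with CCl4, 1 of 4 with GAL and 4 of 5 with ConA. The shares of all genes whose treated and vehicle livers did not overlap were 8.99%, 6.69%, 4.81%, 20.2%, 41.0%, 52.3% and 39.9%, in the same order. Against all 17 vehicle mice all 5 enzymes were tested, and 2 were called with ANIT, 3 with APAP, 5 with MDA, 4 with TAA, 4 with CCl4, 3 with GAL and 5 with ConA, beside 28.0%, 33.4%, 34.2%, 49.7%, 53.4%, 52.5% and 68.0% of all genes.

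**Figure D1:**
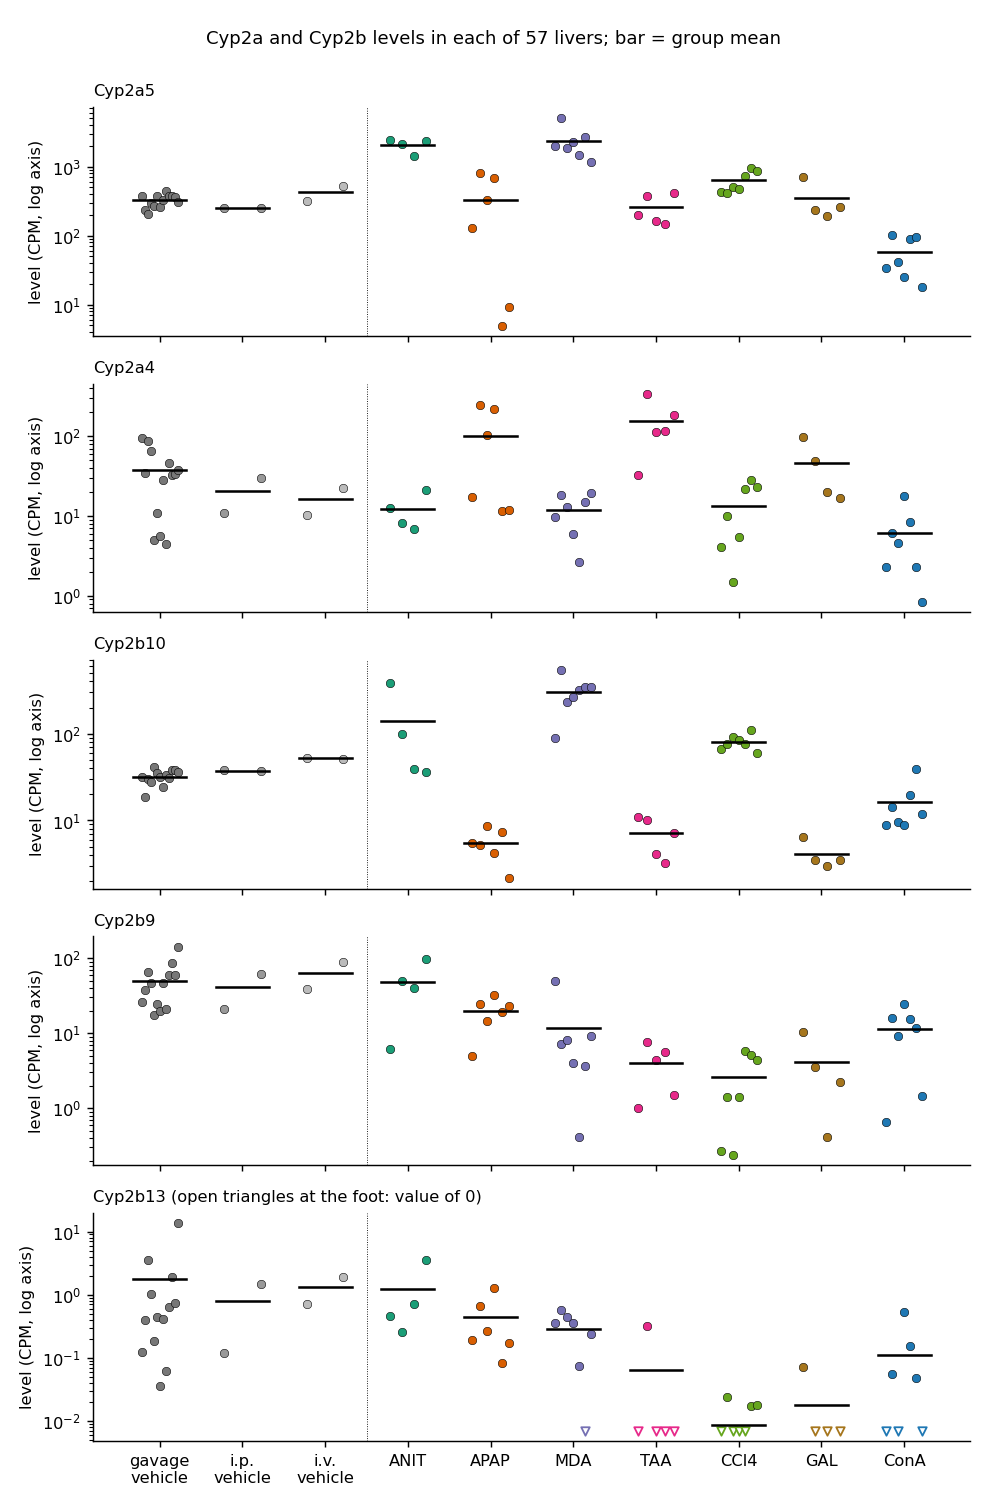
Level of each enzyme in each of the 57 livers (CPM, log axis), by group. Points are mice, bars are group means, and open triangles mark values of 0. The 7 MDA livers sit above every gavage vehicle liver for Cyp2a5 and Cyp2b10, and the 5 TAA livers sit below every one of them for Cyp2b10 and Cyp2b9.

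In gavage vehicle livers Cyp2b10 stood between 18.6 and 41.1 CPM, with a median of 31.9 CPM and a mean of 31.98 ± 6.05 (SD, n = 13). The saline livers lay at 37.8 and 37.4 CPM after intraperitoneal and at 52.5 and 51.2 CPM after intravenous injection. After MDA the 7 livers held from 88.1 to 536 CPM, with a median of 316 CPM, all above the vehicle livers. The rise was 3.25 ± 0.21 on the log2 scale, or 9.53-fold (adjusted p = 1.10e-09). MDA, an aromatic diamine used to injure bile ducts, gave the highest mean of the 10 groups, 304 ± 136 CPM (SD, n = 7). In the same livers the neutrophil markers summed to 8.60 to 132 CPM (median 33.3), against a median of 4.89 CPM in gavage vehicle livers, and the Kupffer cell markers to a median of 202 CPM against 338 CPM. MDA mouse 2, highest in Cyp2b10 and Cyp2a5, was also highest of the MDA livers in hepatocyte markers (137482 against 61386 to 89820 CPM), in other CAR and PXR target genes (12315 CPM) and in NRF2 target genes (11757 CPM). TMM set the effective size of this library at 11721378 from a total of 19038287 counts. That raises all of its CPM values, so these heights depend in part on the scaling. MDA mouse 1, lowest in Cyp2b10, held 6112 CPM of pericentral hepatocyte genes against 1440.5 to 3104 CPM in the others. Their part in the MDA results was not tested.

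ANIT, another bile duct toxicant, gave uneven Cyp2b10 levels of 382, 98.4, 39.4 and 35.9 CPM in mice 1 to 4. The 2 lower livers lay within the vehicle range, and the fitted rise was 2.12 ± 0.37 on the log2 scale (adjusted p = 4.65e-04). Without mouse 1 it was 0.87 (adjusted p = 0.0116). Against the vehicle mice numbered 1 to 4 alone it was 2.34 with an adjusted p of 0.0618. Mouse 1 also had the highest sum of the 16 other CAR and PXR target genes, 12042 CPM against 3836, 3635 and 3897 in mice 2 to 4. It stood apart in other lists as well. Its 15 NRF2 target genes summed to 11097 CPM against 3463 to 6065 CPM in the other 3, its hepatocyte markers to 118995 against 68290 to 72924, its pericentral hepatocyte genes to 2212 against 4218 to 5976 and its monocyte markers to 30.8 against 5.24 to 6.57. Over the 4 ANIT livers the neutrophil markers had a median of 28.7 CPM against 4.89 CPM in gavage vehicle livers. The Kupffer cell markers had 220 against 338 CPM and the cholangiocyte markers 23.2 against 42.3 CPM. The part of these values in the ANIT results was not tested.

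After CCl4 the 7 livers held Cyp2b10 at 59.4 to 111 CPM, with a median of 76.9 CPM, all above both saline livers. The neutrophil markers summed there to 10.59 to 74.7 CPM against 5.40 and 5.83 CPM after saline, and their part was not tested. The rise was 1.14 ± 0.22 (adjusted p = 0.00328) against saline and 1.19 ± 0.14 against all vehicle mice. It missed the threshold when all 10 groups shared 1 estimate of the spread (adjusted p = 0.186). With the counts of Cyp2b9, Cyp2b10 and Cyp2b13 summed before the test, the change against saline was 0.10 (adjusted p = 0.789), as Cyp2b9 was lower in the same livers.

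Cyp2b10 fell after the other compounds. After APAP, whose reactive metabolite injures central hepatocytes, mice 1, 2, 4, 6, 8 and 11 held 5.54, 5.26, 8.55, 4.26, 7.32 and 2.15 CPM. The fall was -2.50 ± 0.23 (adjusted p = 5.59e-07), and every APAP liver lay below every vehicle liver. After TAA, another toxicant of central hepatocytes, the livers held 11.0, 10.2, 4.06, 3.20 and 7.23 CPM (-2.11 ± 0.26, adjusted p = 1.82e-06). GAL, which depletes uridine nucleotides in hepatocytes, left 6.41, 3.52, 2.98 and 3.51 CPM, the lowest group mean (-3.20 ± 0.32, adjusted p = 0.00238). In the GAL livers the neutrophil markers summed to 25.3 to 40.8 CPM against 5.40 and 5.83 CPM after saline, the monocyte markers to 28.3 to 58.5 against 10.04 and 11.7, and the Kupffer cell markers to 371 to 531 against 317 and 336, and their part was not tested. ConA, a lectin that activates T cells, left 8.75 to 39.6 CPM with a median of 12.0 CPM (-1.62 ± 0.50, adjusted p = 0.0309). All 7 ConA livers lay below both intravenous saline livers, but the ConA range overlapped that of all 17 vehicle mice. The ConA call rests on 2 saline livers, and without either of them 1 control is left. With 1 mouse of either group left out the ConA change was -2.03 to -1.51. The ConA call was lost without ConA mouse 3 (adjusted p = 0.0508) and with the number band as a covariate (-1.31, adjusted p = 0.0926). It held against all vehicle mice (-1.01 ± 0.24, adjusted p = 7.23e-04).

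**Figure D2:**
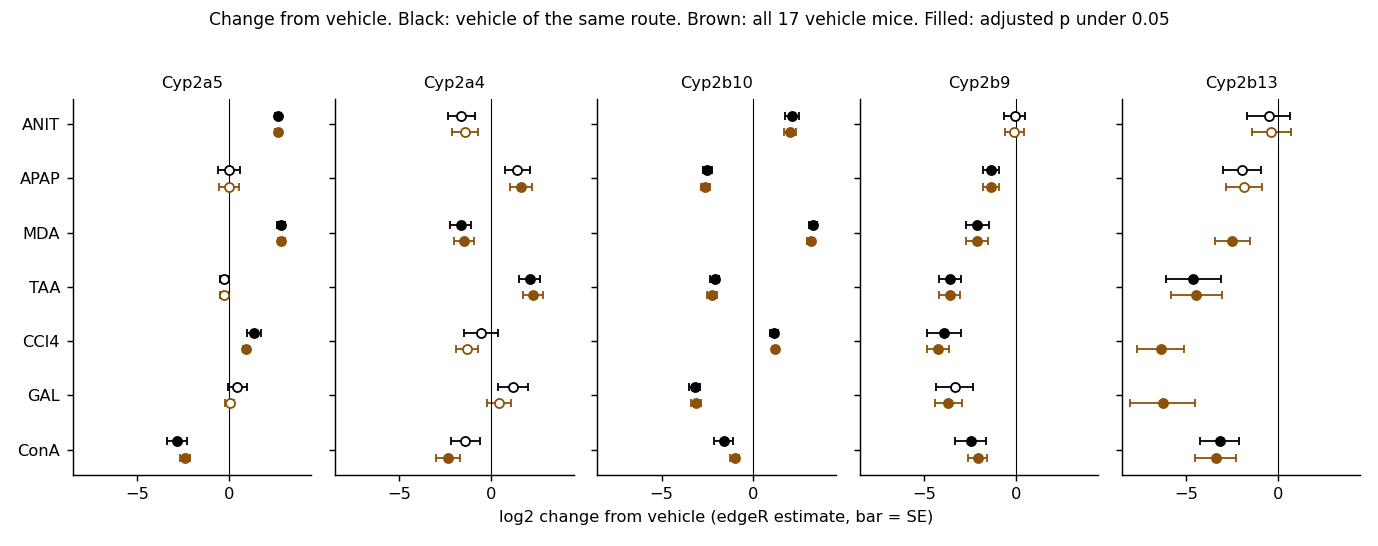
Log2 change of each enzyme from vehicle for the 7 compounds, with standard errors. Black points use the vehicle of the same route, brown points all 17 vehicle mice, and filled points have an adjusted p under 0.05. Cyp2b10 lies right of 0 for ANIT, MDA and CCl4 and left of it for the other 4, and all of its points are filled.

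Cyp2a5 had the highest values of the 5 in vehicle livers. It stood at 204 to 447 CPM after the gavage vehicle (median 324, mean 323 ± 68.6 SD, n = 13), at 248 and 249 CPM after intraperitoneal saline and at 320 and 530 CPM after intravenous saline. The 4 ANIT livers held 2448, 2132, 1423 and 2320 CPM. The 7 MDA livers held 1153 to 5115 CPM with a median of 2008 CPM. Both groups lay wholly above the vehicle livers. The rise was 2.69 ± 0.16 on the log2 scale for ANIT (6.44-fold, adjusted p = 1.02e-08) and 2.87 ± 0.21 for MDA (7.30-fold, adjusted p = 4.83e-09). In the fit of all 10 groups, MDA and ANIT differed by 0.18 ± 0.60 for Cyp2a5 (adjusted p = 0.982) and by 1.13 ± 0.44 for Cyp2b10 (adjusted p = 0.307), and 0.240% of all genes were called between these groups.

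After CCl4, Cyp2a5 stood at 430, 414, 507, 474, 742, 967 and 877 CPM in mice 1, 5, 6, 8, 10, 11 and 12. All 7 lay above both intraperitoneal saline livers, and they overlapped the other vehicle livers. The rise was 1.38 ± 0.38 against saline (adjusted p = 0.0196) and 0.93 ± 0.17 against all vehicle mice (adjusted p = 4.90e-05). The call against saline rests on 2 control livers, and without either of them 1 control is left. With 1 mouse of either group left out the change was 1.21 to 1.46. The call was lost in the fit of all 10 groups (1.34, adjusted p = 0.285). The call against all vehicle mice was lost in that fit (0.96, adjusted p = 0.0581). Within numbers 1 to 4, where mouse 1 is the only CCl4 liver, the change was 0.58. ConA left Cyp2a5 at 34.2, 102, 41.3, 25.3, 89.2, 95.2 and 18.3 CPM, all below every vehicle liver. The fall was -2.81 ± 0.56 (7.01-fold, adjusted p = 0.00362). In the same livers the Kupffer cell markers summed to 24.2 to 52.1 CPM against 300 and 304 CPM in intravenous saline livers, and the neutrophil markers to 146 to 307 CPM against 8.01 and 9.04 CPM. Mitochondrial genes took 14.6% to 39.3% of the counts in these livers, against 6.79% and 25.4% after intravenous saline and 7.48% to 21.8% after the gavage vehicle. Their part in the result was not tested.

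APAP spread Cyp2a5 over more than the whole vehicle range. Mice 1, 2, 4, 6, 8 and 11 held 128, 800, 333, 682, 4.98 and 9.33 CPM. Mice 2 and 6 lay above every gavage vehicle liver and mice 1, 8 and 11 below every one, and the mean change was 0.02 ± 0.60 (adjusted p = 0.983). The sum of 10 pericentral hepatocyte genes in these 6 livers, in the same order, was 4260, 1177, 701, 1721, 109 and 122 CPM, against 3982 to 6049 CPM in gavage vehicle livers. The neutrophil markers summed to 42.3, 13.4, 19.5, 18.3, 197 and 264 CPM, and the 15 NRF2 target genes to 5491, 4323, 3727, 5340, 2332 and 2097 CPM. Mice 8 and 11 were thus lowest in Cyp2a5, in pericentral and in NRF2 target genes, and highest in neutrophil markers. How these values bear on Cyp2a5 was not tested.

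TAA livers held Cyp2a5 at 201, 373, 165, 146 and 420 CPM, and the change of -0.26 ± 0.22 was not called (adjusted p = 0.348). Of the 4 GAL livers, mouse 2 held 702 CPM and the others 238, 194 and 256 CPM, with a change of 0.47 ± 0.53 (adjusted p = 0.530). The calls of Cyp2a5 with ANIT, MDA and ConA, and of Cyp2b10 with APAP, MDA, TAA and GAL, held under every alternative that was run for them.

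Cyp2a4, the near copy of Cyp2a5, had its 1 call higher with TAA, where Cyp2a5 was not called. Gavage vehicle livers held 4.43 to 95.3 CPM of Cyp2a4 (median 33.5, mean 37.6 ± 29.9 SD, n = 13). After TAA the livers held 33.0, 339, 112, 116 and 186 CPM, and 4 of the 5 lay above every vehicle liver. The rise was 2.10 ± 0.59 (4.30-fold, adjusted p = 0.00562). It was 1.43 with an adjusted p of 0.237 among mice numbered 1 to 4. In the same 5 livers the neutrophil markers summed to 159 to 826 CPM (median 306), the highest median of the 10 groups, against 2.11 to 62.2 CPM (median 4.89) in gavage vehicle livers. Their part in the TAA results was not tested. APAP livers held 17.5, 248, 104, 218, 11.5 and 11.9 CPM, and the 3 highest were again mice 2, 4 and 6. The APAP change was 1.44 ± 0.67 against gavage vehicle (adjusted p = 0.108), where it was called under library totals (1.75, adjusted p = 0.0462) and with the band covariate (1.97, 0.0374), and 1.63 ± 0.61 against all vehicle mice (adjusted p = 0.0407). The latter call was lost without APAP mouse 2 (1.16, adjusted p = 0.179), mouse 4 (1.62, 0.0624) or mouse 6 (1.25, 0.148), and with limma (1.10, 0.220), no filter (0.0566) or numbers 1 to 4 alone (0.82, 0.505).

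With ANIT, MDA and CCl4, where Cyp2a5 rose, Cyp2a4 was not called higher. MDA livers held 2.69 to 19.2 CPM of Cyp2a4, with a fall of -1.65 ± 0.57 (adjusted p = 0.0305). That call was lost without MDA mouse 1, 3, 4 or 7 (adjusted p from 0.0509 to 0.0641), with all groups in 1 fit (0.0544), with limma (0.0900) and with the band covariate (0.109), and in mice numbered 5 to 12 the change was 0.17. ANIT livers held 12.5, 8.13, 6.85 and 21.4 CPM (-1.62 ± 0.74, adjusted p = 0.112). Against the vehicle mice numbered 1 to 4, the ANIT change was -2.55 with an adjusted p of 0.00686. CCl4 livers held up to 28.1 CPM, with a change of -0.54 against saline (adjusted p = 0.688) and -1.31 ± 0.60 against all vehicle mice (adjusted p = 0.0691). The latter was called with DESeq2 (-1.33, adjusted p = 0.0352) and was 0.028 in numbers 5 to 12. GAL livers held 99.0, 49.8, 19.9 and 16.9 CPM (1.20, adjusted p = 0.302). ConA livers held 0.838 to 17.8 CPM, with a change of -1.41 ± 0.79 against saline (adjusted p = 0.189) and -2.34 ± 0.63 against all vehicle mice (adjusted p = 0.00209), where numbers 5 to 12 alone gave -0.98 (adjusted p = 0.251).

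The mouse number goes with the level of Cyp2a4 in untreated livers. Gavage vehicle mice numbered 1 to 4 held 70.9 ± 26.9 CPM (SD, n = 4), those numbered 5 to 12 held 10.9 ± 10.2 CPM (SD, n = 5) and those above 12 held 37.7 ± 6.19 CPM (SD, n = 4). From mice 1 to 4 to mice 5 to 12 the change was -2.70 ± 0.51 (adjusted p = 0.0188), and 2.06% of all genes were called between these bands. Cyp2b9 differed between mice numbered 5 to 12 and those above 12, 25.7 ± 11.7 against 86.9 ± 39.0 CPM (1.76 ± 0.36, adjusted p = 0.0289), where 1.78% of all genes were called. No band difference was called for Cyp2a5, Cyp2b10 or Cyp2b13. The labels do not say what the numbers stand for. The bands were set from earlier results of these data. No effect of APAP, MDA or TAA on the 5 enzymes was called different between mice numbered 1 to 4 and 5 to 12, where the smallest adjusted p was 0.271 and Cyp2b13 was not tested. The shares of all genes called there were 0.0148%, 0.00% and 0.0797%.

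The percentage of Cyp2a4 in the summed level of both Cyp2a genes does not depend on library scaling. It was 10.4 ± 8.41% in gavage vehicle livers (SD, n = 13, from 0.982% to 30.0%), 4.22% and 10.7% after intraperitoneal saline, and 3.13% and 4.13% after intravenous saline. After ANIT it was 0.570 ± 0.236% (SD, n = 4) and after MDA 0.596 ± 0.493% (SD, n = 7). It was 34.95 ± 22.6% after APAP (SD, n = 6) and 35.5 ± 13.5% after TAA (SD, n = 5). In exact two-sided permutation tests against the route vehicle, adjusted over the 14 comparisons, p was 0.00235 for ANIT, 3.61e-04 for MDA, 0.00619 for APAP and 0.00280 for TAA. The unadjusted ANIT value of 8.40e-04 is the smallest this design allows.

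Within the number bands, which differ in Cyp2a4, the lower and the higher share each held in part. Among mice 1 to 4 the share was 20.3 ± 7.11% in vehicle livers (SD, n = 4), 0.570% after ANIT and 0.447 ± 0.188% after MDA (SD, n = 4; exact permutation p = 0.0286 for each, the smallest possible). In the same band it was 19.8 ± 6.78% after APAP (SD, n = 3; exact permutation p = 0.914) and 30.9% on average in 2 TAA livers (exact permutation p = 0.533, smallest possible 0.133). Among mice 5 to 12 it was 3.17 ± 2.83% in vehicle livers (SD, n = 5), 50.1 ± 23.4% after APAP (SD, n = 3) and 38.5 ± 6.99% after TAA (SD, n = 3), with exact permutation p = 0.0357 for each, the smallest possible. There it was 0.794 ± 0.757% after MDA (SD, n = 3; exact permutation p = 0.0714, where 0.0357 was possible). APAP mice 8 and 11, at 69.9% and 56.1%, had the highest shares, with Cyp2a5 at 4.98 and 9.33 CPM and with Cyp2a4 at 11.5 and 11.9 CPM, within the vehicle range.

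CCl4 livers had a share of 1.86 ± 1.05% (SD, n = 7), below both saline livers. Its exact permutation p of 0.0556 is the smallest that 7 mice against 2 allow, and its adjusted value was 0.0778. Against all vehicle mice the adjusted exact permutation p was 0.00290, but within mice numbered 5 to 12 the exact permutation p was 0.0947. GAL at 11.3 ± 4.73% (SD, n = 4) and ConA at 11.2 ± 13.5% (SD, n = 7) were set against 2 saline livers each, where the smallest exact permutation p is 0.133 and 0.0556, so no difference could pass. Against all vehicle mice their adjusted exact permutation p was 0.629 and 0.644.

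**Figure D3:**
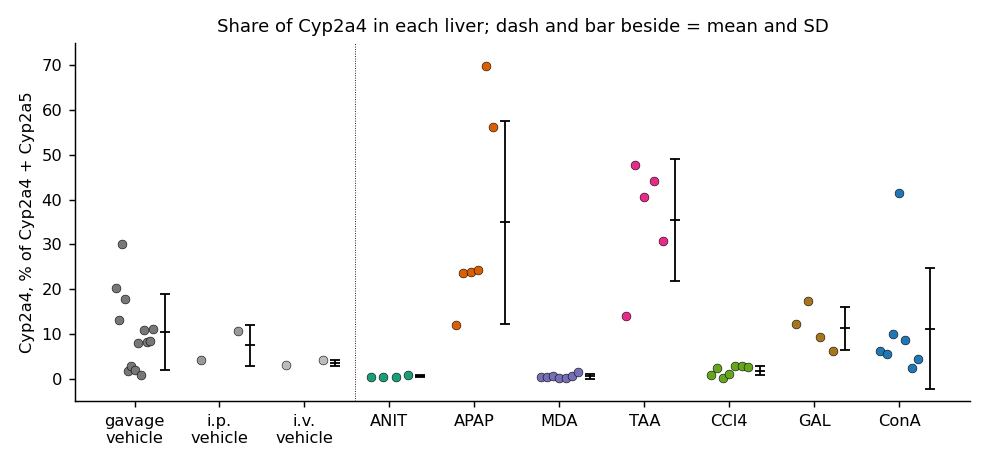
Cyp2a4 as a percentage of the summed Cyp2a4 and Cyp2a5 level in each liver. Points are mice, and the dash and bar beside them are the group mean and SD. All ANIT and MDA livers lie under 2%, and all APAP and TAA livers lie at 12.0% or above. Gavage vehicle livers span 0.982% to 30.0% and so reach past both limits.

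Cyp2b9 was called in neither direction with ANIT and fell with 5 of the other compounds. Gavage vehicle livers held 17.3 to 142 CPM (median 46.1, mean 50.3 ± 34.8 SD, n = 13), and mouse 18 was the highest. TAA livers held 1.00, 7.76, 4.35, 5.63 and 1.52 CPM, all below every vehicle liver (-3.58 ± 0.60, adjusted p = 5.53e-05). CCl4 livers held 0.241 to 5.76 CPM against 21.03 and 62.5 CPM after saline (-3.90 ± 0.91, adjusted p = 0.00954). Without saline mouse 8, which leaves 1 control liver, the CCl4 change was -2.95. Against all vehicle mice the CCl4 change was -4.26 and called. After MDA, mouse 1 held 49.6 CPM and the other 6 held 0.412 to 9.07 CPM. The MDA fall was -2.10 ± 0.63 (adjusted p = 0.0132), it was -3.22 without mouse 1 (adjusted p = 1.60e-04), and among mice numbered 1 to 4 it was -1.38 (adjusted p = 0.266).

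GAL left Cyp2b9 at 10.5, 3.50, 0.416 and 2.22 CPM, below both saline livers, with a change of -3.33 ± 1.02 (adjusted p = 0.0520) against saline. That change was called with DESeq2 (adjusted p = 0.00163), all groups in 1 fit (0.0192), limma (0.0256), a mean of at least 5 CPM (0.0442), the band covariate (-4.95, 0.0304) and numbers 5 to 12 alone (0.0185). It was -3.66 ± 0.71 (adjusted p = 1.58e-04) against all vehicle mice, where it was -4.61 without GAL mouse 2. ConA left 0.655 to 24.3 CPM against 38.4 and 89.5 CPM after saline (-2.45 ± 0.83, adjusted p = 0.0444). The ConA call rests on 2 saline livers, and without saline mouse 8, which leaves 1 control, the change was -1.75. It was lost with DESeq2 (-2.47, adjusted p = 0.0529), no filter (-2.48, 0.0584), the band covariate (-2.23, 0.128) and numbers 5 to 12 (-2.22, 0.0932). APAP livers held 4.96 to 31.9 CPM and overlapped the vehicle livers (-1.32 ± 0.44, adjusted p = 0.0265). Among mice numbered 5 to 12 the APAP change was -0.02 (adjusted p = 0.980), and the call was also lost without APAP mouse 1 (0.0570), mouse 4 (0.0555) or mouse 8 (0.0502), in numbers 1 to 4 (0.116), with the band covariate (0.155), with all groups in 1 fit (0.136) and under library totals (0.0856). ANIT livers held 6.10, 50.3, 40.1 and 96.8 CPM and spanned the vehicle range (-0.05 ± 0.55, adjusted p = 0.956).

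Cyp2b13 was at the edge of detection. Gavage vehicle livers held 0.0362 to 13.6 CPM (median 0.445), with mouse 18 again the highest. It was listed at 0 in 4 of 5 TAA livers, in 4 of 7 CCl4 livers, in 3 of 4 GAL livers, in 3 of 7 ConA livers and in 1 of 7 MDA livers. The TAA fall (-4.61 ± 1.49, adjusted p = 0.0148) and the ConA fall (-3.17 ± 1.06, adjusted p = 0.0405) passed the test against the route vehicle. The ConA call rests on 2 saline livers, and without saline mouse 8, which leaves 1 control, the change was -2.35. It was lost with DESeq2 (-3.30, adjusted p = 0.0690), no filter (-3.21, 0.0636), the band covariate (-2.66, 0.114) and numbers 5 to 12 (-2.65, 0.129). The TAA call was lost with limma (0.123) and in numbers 1 to 4 (0.250). Such fitted values depend on how few counts are treated: without TAA mouse 3 the TAA value was -8.29, without vehicle mouse 18 it was -3.41, and without ConA mouse 5 the ConA value was -4.33. With CCl4 and GAL it was too low to test against saline. Both intraperitoneal saline livers held it, at 0.120 and 1.49 CPM, against at most 0.0242 CPM after CCl4 and 0.0719 CPM after GAL, and no fold is given because the lower saline liver rests on 4.07 estimated counts. Against all 17 vehicle mice it was called lower with CCl4 (adjusted p = 1.51e-04), GAL (0.00443), ConA (0.00922), TAA (0.0113) and MDA (0.0469). In numbers 1 to 4, where mouse 1 is the only CCl4 liver, the CCl4 change was -7.38. The calls of GAL and TAA were lost in that band and with limma, and that of ConA with limma. The MDA call was lost under 5 alternatives and when MDA mouse 1, 3, 4, 7, 8 or 12 was left out. ANIT (-0.51, adjusted p = 0.786) and APAP (-1.98, adjusted p = 0.155) were not called.

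**Figure D4:**
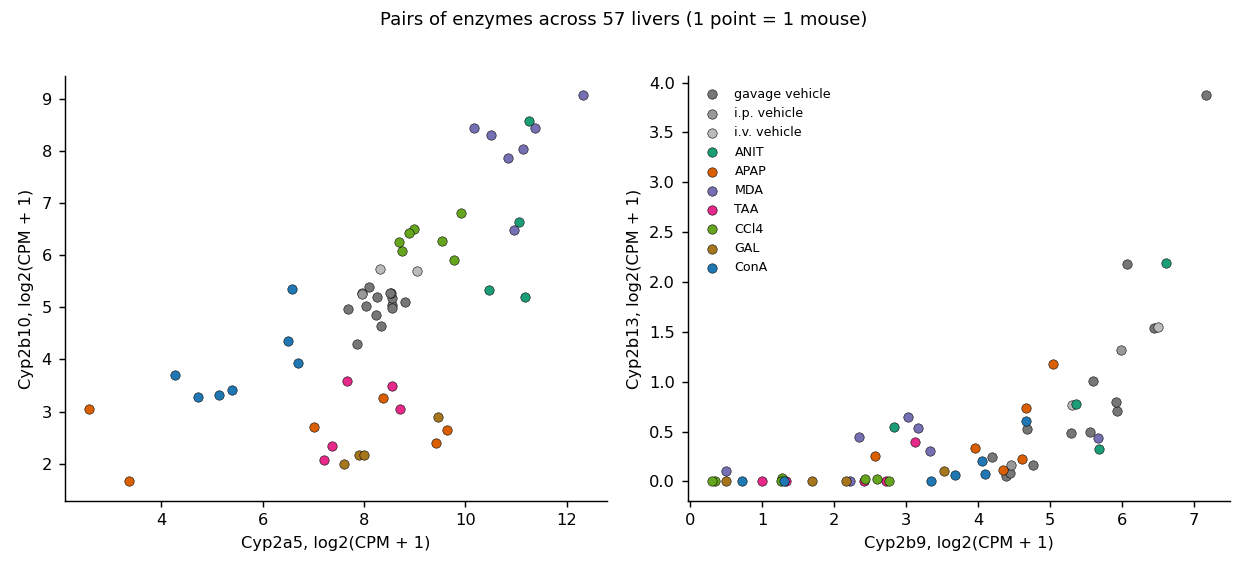
Levels of 2 pairs of enzymes across the 57 livers, each as log2(CPM + 1), with 1 point per mouse coloured by group. In the left plot all ANIT and MDA livers lie high in Cyp2a5, 2 ANIT livers lie within the vehicle range of Cyp2b10, and APAP and TAA livers lie low in Cyp2b10 at differing Cyp2a5. In the right plot Cyp2b13 is near 0 wherever Cyp2b9 is low.

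Across the 57 livers, Cyp2a5 and Cyp2b10 had a Pearson r of 0.68 and a Spearman rho of 0.69 on the log2(CPM + 1) scale, and Cyp2b9 and Cyp2b13 had 0.69 and 0.83. Cyp2a4 and Cyp2a5 had 0.13 and 0.04, Cyp2a4 and Cyp2b10 -0.39 and -0.42, and Cyp2a5 and Cyp2b9 0.04 and 0.02. These are descriptions over livers that share groups and, for the near copies, reads. Among 12236 genes averaging 1 CPM or more, those most like Cyp2a5 were Ephx1 (r = 0.85), Entpd5 (0.83) and Gstm1 (0.82). Those most like Cyp2b10 were Gstm2 (0.87), Dus1l (0.83) and Cyp26a1 (0.78). Cyp2b9 was most like Cyp2a22 (0.89), Slc22a27 (0.83) and Hadh (0.81), and Cyp2b13 like Slc22a27 (0.68), Cyp2a22 (0.67) and Mir1966 (0.62). For Cyp2a4 the closest were 1110028F11Rik (0.62), Pdgfrb (0.61) and Mest (0.61).

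The 10 groups were also put in order by mean CPM, and neighbours were compared in the fit of all 10 groups. For Cyp2b10 the order from low to high was GAL, APAP, TAA, ConA, gavage vehicle, intraperitoneal vehicle, intravenous vehicle, CCl4, ANIT and MDA. Among neighbours, TAA and ConA differed by 1.18 ± 0.41 (adjusted p = 0.0272) and ConA and gavage vehicle by 0.99 ± 0.33 (adjusted p = 0.00929), and no other neighbours were called. For Cyp2a5 the order was ConA, intraperitoneal vehicle, TAA, gavage vehicle, APAP, GAL, intravenous vehicle, CCl4, ANIT and MDA. ConA and its neighbour differed by 2.10 ± 0.69 (adjusted p = 0.0138) and CCl4 and ANIT by 1.72 ± 0.59 (adjusted p = 0.0234). For Cyp2a4, Cyp2b9 and Cyp2b13 no neighbours were called, with the highest means in TAA, intravenous vehicle and gavage vehicle. The gavage vehicle mean of Cyp2b13, 1.78 CPM, rests largely on mouse 18 at 13.6 CPM, as the median was 0.445 CPM. Of the 45 pairs of groups, 32 were called for Cyp2b10, 21 for Cyp2a5, 19 each for Cyp2b9 and Cyp2b13, and 12 for Cyp2a4. Over the 45 pairs together 24.6% of all gene tests were called, with a range of 0.00% to 57.7% by pair and with 27.2%, 57.7%, 37.9% and 26.1% in the 4 pairs of neighbours just given. After Bonferroni adjustment over the pairs, 26, 13, 4, 3 and 5 were left.

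The other genes of the cluster, which lies between Cyp2s1 and Cyp2t4 in the reference, rose in none of the 7 comparisons with the route vehicle. Cyp2f2, a monooxygenase abundant in lung and liver, fell in 7 of 7, by 0.88 (ANIT) to 1.93 (APAP) on the log2 scale. Cyp2a22, at 21.9 ± 8.81 CPM in gavage vehicle livers (SD, n = 13), changed by -2.02 with APAP, -1.47 with MDA, -2.52 with TAA and -2.44 with CCl4, and was not called with ANIT (-0.57), GAL (-1.77) or ConA (-0.95). Cyp2g1 fell with ANIT (-2.02), APAP (-2.52), TAA (-2.41), ConA (-5.21) and also MDA. Cyp2a12, at 523 ± 52.6 CPM in gavage vehicle livers (SD, n = 13), fell with CCl4 (-1.21) and GAL (-1.84) and was not called with the other 5. Cyp2s1 was tested with CCl4 and GAL and called with neither, and Cyp2t4 was listed at 0 in every liver. Cyp2b19 and Cyp2b23 were too low to test. Cyp2b23 was present in 7 of 7 CCl4 livers, at 0.0560 to 0.132 CPM and at most 4.89 estimated counts, and was listed at 0 in the 4 saline livers. With no filter on low counts, 1 of 6 other cluster genes was called higher with CCl4.

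The receptor genes were called in both directions. They are named here for their role, outside the rule that picked the list genes. Nr1i3, which encodes CAR, rose with ANIT (0.75 ± 0.26, adjusted p = 0.0362), was not called with MDA (0.51 ± 0.25, adjusted p = 0.126), and fell with APAP (-0.63), TAA (-0.77), CCl4 (-0.89) and ConA (-2.27). With GAL it stood at -1.65 ± 0.51 (adjusted p = 0.0533). Nr1i2, which encodes the related receptor PXR, rose with ANIT (0.88) and MDA (1.15), fell with APAP (-0.59), TAA (-0.59), CCl4 (-0.89) and ConA (-1.88), and was not called with GAL (-1.82, adjusted p = 0.0663). With CCl4, Cyp2b10 was called higher and Nr1i3 and Nr1i2 lower than in saline livers, and how they relate was not tested. Nfe2l2, which encodes NRF2, rose with MDA (0.37), TAA (0.90), GAL (1.78) and ConA (0.90).

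Of 14 regulators and partners of the enzymes, 6 rose and 2 fell with ANIT and 7 rose and 2 fell with MDA, against 0 and 5 with APAP, 3 and 9 with TAA, 1 and 7 with CCl4, 1 and 5 with GAL, and 3 and 6 with ConA. Scaled by library totals, the counts turned to 4 and 2 with CCl4, to 5 and 0 with GAL and to 4 and 2 with MDA. Within numbers 1 to 4 they were 4 and 2 with ANIT and 2 and 2 with MDA. The shares called over all genes, 28.2% to 50.5%, stand beside these counts. Por, the reductase, rose with ANIT (1.77), MDA (1.68), TAA (1.20), CCl4 (0.81) and ConA (1.59). Alas1, the first enzyme of heme synthesis, rose with ANIT (1.83) and ConA (1.38). Cebpa, a hepatocyte transcription factor, fell with ANIT (-0.84), MDA (-1.08), TAA (-1.56) and CCl4 (-1.92).

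The 16 other CAR and PXR target genes were more often called higher than lower with ANIT and MDA, and more often lower with the other 5 compounds. With ANIT 8 of 15 tested rose and 1 fell (median log2 change 0.68, against -0.01 over all genes), and with MDA 9 rose and 1 fell (0.54 against 0.03). The ANIT count was 6 with DESeq2, limma or library totals and 4 within numbers 1 to 4, and the MDA count was 6 in each number band. The summed level of the list was high in ANIT mouse 1 alone, as the 3635 to 3897 CPM of mice 2 to 4 lay within the 3327 to 5144 CPM of gavage vehicle livers. With APAP 2 rose and 10 fell of 15 (-1.24 against 0.07), with TAA 2 and 10 of 15 (-0.83 against 0.03), with CCl4 1 and 9 of 14 (-1.39 against 0.10), with GAL 0 and 8 of 13 (-1.54 against 0.08) and with ConA 2 and 5 of 15 (-1.09 against 0.03). Scaled by library totals, the GAL count was 2 and 4 and the ConA count 2 and 11. Over the alternatives, 3 to 10 fell with APAP and 5 to 12 with TAA. Cyp2c29, a CAR-responsive P450, rose with MDA (0.85 ± 0.17, adjusted p = 5.63e-04) and fell with APAP (-3.05), TAA (-2.97), GAL (-2.98) and also with ConA. Cyp3a13 rose with ANIT (1.64 ± 0.22, adjusted p = 3.74e-05). Gadd45b, which stress signals also induce, rose with ANIT (3.28), MDA (3.26), TAA (5.93) and ConA (6.78), and Cyp2c55 fell with APAP (-2.89), TAA (-3.22), GAL (-2.97) and ConA (-6.01).

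The 15 NRF2 target genes were more often called higher than lower with every compound except ConA. Of those tested, 10 of 13 rose with ANIT (median 1.45), 7 of 13 with APAP (0.87), 12 of 13 with MDA (1.15), 9 of 14 with TAA (1.33), 11 of 15 with CCl4 (1.47) and 10 of 15 with GAL (2.30). Over all genes the median change was between -0.01 and 0.10 in these comparisons, and 28.2% to 50.5% were called in either direction. None fell with ANIT, MDA, TAA or CCl4, 2 fell with APAP and 1 with GAL. With ConA 2 rose and 3 fell of 13 (median -0.50), and over the alternatives 1 to 5 rose and 2 to 6 fell. Srxn1, a sulfiredoxin, rose with ANIT (2.34), APAP (2.34) and MDA (2.60). Gsta1, a glutathione transferase, rose with APAP (3.21) and TAA (3.70) and fell with ConA (-3.30). Abcc4, an efflux transporter, rose from 0.956 to 46.5 CPM with CCl4 (5.67 ± 0.27). The APAP count was 4 of 13 in each number band, and the summed level of the list was 2097 to 5491 CPM after APAP, on both sides of the 2763 to 4873 CPM of gavage vehicle livers.

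**Figure D5:**
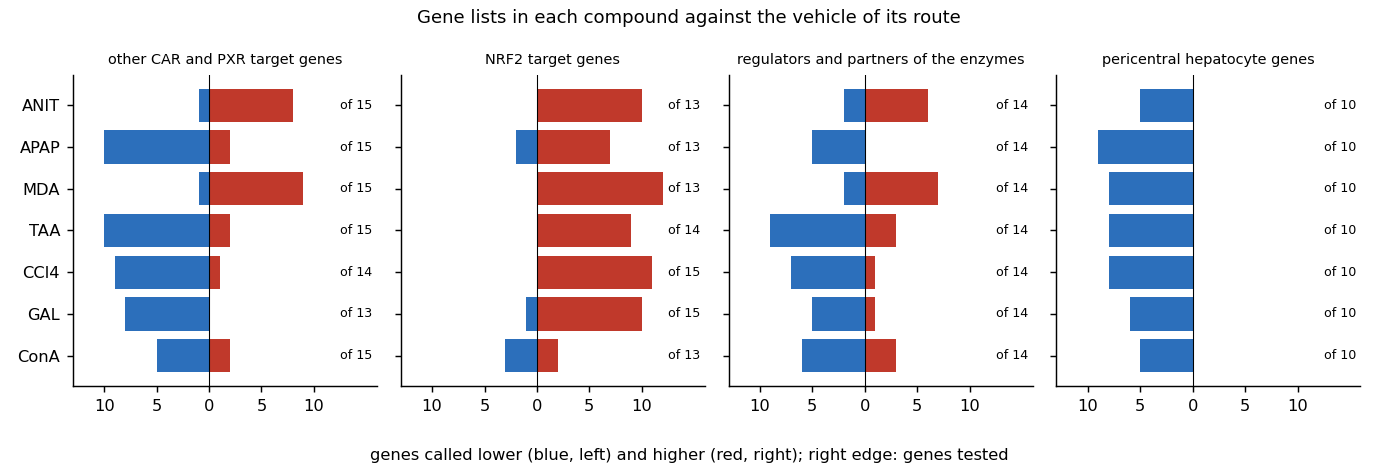
Number of genes called lower (blue, to the left) and higher (red, to the right) in 4 gene lists, for each compound against the vehicle of its route, with the number tested at the right. CAR and PXR target genes point right for ANIT and MDA, and NRF2 target genes point right for all compounds but ConA.

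Genes of liver zone, sex bias and growth hormone gave a background for Cyp2a4, Cyp2b9 and Cyp2b13. Of 10 pericentral hepatocyte genes none rose, and 5 fell with ANIT, 9 with APAP, 8 with MDA, 8 with TAA, 8 with CCl4, 6 with GAL and 5 with ConA. Scaled by library totals, 1 rose and 3 fell with GAL and 8 fell with ANIT. Within numbers 1 to 4, 3 fell with APAP, 5 with MDA and 3 with TAA. Of 9 periportal hepatocyte genes, 2 rose and 2 fell with ANIT, 0 and 5 with APAP, 2 and 3 with MDA, 1 and 7 with TAA, 0 and 9 with CCl4, 0 and 8 with GAL, and 1 and 3 with ConA. Their sum was 698 to 1140 CPM after GAL against 6236 and 8473 CPM after saline. The 13 male-biased genes fell more often than they rose, with 7, 10, 7, 5, 10, 11 and 6 lower in that order and at most 2 higher. Under library totals 4 fell with GAL, and within numbers 1 to 4, 4 fell with APAP. Hsd3b5, a male-specific steroid dehydrogenase, fell from 89.3 to 0.101 CPM with ANIT and to 0.164 CPM with MDA. Of 15 other female-biased genes, 4 rose and 1 fell of 12 tested with ANIT, 0 and 3 of 11 with APAP, 4 and 4 of 11 with MDA, 3 and 3 of 11 with TAA, 0 and 4 of 11 with CCl4, 1 and 1 of 10 with GAL, and 3 and 0 of 8 with ConA. Over all genes 28.2% to 50.5% were called in these comparisons. Within numbers 1 to 4 the counts were 3 and 3 with ANIT, 0 and 1 with APAP and 1 and 3 with MDA, and within numbers 5 to 12 they were 2 and 0 with MDA. Over the alternatives, 0 to 5 of these genes fell with APAP and 0 to 5 with TAA. Of the female-biased genes, Hao2 fell with ANIT (-3.78), APAP (-3.84), MDA (-5.75), CCl4 (-3.40) and GAL (-5.26). Of 9 growth hormone pathway genes, 1 rose and 4 fell with ANIT, 2 and 4 with APAP, 0 and 6 with MDA, 3 and 5 with TAA, 0 and 6 with CCl4, 1 and 5 with GAL, and 3 and 3 with ConA. Under library totals the GAL count was 3 and 3. Ghr, the receptor, fell with ANIT (-0.94), MDA (-1.30), CCl4 (-1.80) and GAL (-2.08), and Socs2, a STAT5 target, rose with ConA (3.46).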

How the data were processed

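Stranded mRNA libraries (TruSeq) of 57 livers were read from a single end on an Illumina NovaSeq, per the labels' protocols. The authors deposited a table of estimated counts per gene and sample. The submitters' processing notes name Salmon 1.6.0, R 4.1.3 and the build GRCm39, without their roles, and how transcripts were joined to genes is not given in the sources used here. Over 4032 genes with 1 transcript, longer transcripts had smaller lowest positive values (Spearman's rho -0.944, a description across genes), with a slope of -1.70 on log scales. The values thus fall with length, but the slope does not settle how they were scaled, so levels set side by side between genes are approximate. Symbols came from GENCODE M21 and matched 51482 of 54307 rows.

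The estimated counts were rounded and tested with edgeR 4.0.16 (R 4.3.3, limma 3.58.1, the data.table package, version 1.17.8): 2 groups per fit, TMM, filterByExpr, the two-sided quasi-likelihood test, and Benjamini-Hochberg adjustment over all genes tested, with genes under 0.05 called. Standard errors come from the F statistic. DESeq2 1.42.0 was an alternative. Shares were tested by exact permutation (scipy 1.17.1, numpy 2.4.6, pandas 2.3.3, Python 3.11.15), and figures were drawn with matplotlib 3.10.9. The scripts were checked on simulated counts. Each label names its own liver sample and the replicates were treated as separate mice. P-values set a group difference against the spread between these samples. Precision is limited by the number of mice, and the split of reads between near copies is an estimate. No 2 columns were identical (0 pairs).

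The members and gene lists were chosen with earlier results of these data known. All 5 enzymes and all 8 other cluster genes are named. From each other list, the rule names per comparison the 2 called genes that rose most and the 2 that fell most among those whose treated livers lie beyond every control liver, and some of these are printed. The receptor genes Nr1i3, Nr1i2 and Nfe2l2 are named outside it. For likeness, the 3 genes with the highest r were taken.

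The mouse numbers shared between groups were not taken to pair the mice: the mean correlation of same-numbered deviations was between -0.03 (MDA) and 0.14 (TAA) where 2 or more pairs existed, and -0.11 and 0.13 for the 1 pair of CCl4 and of ConA, and in no comparison did every pair pass 0.1 over 3 or more pairs. Alternatives were another test, scaling or filter, all groups in 1 fit, number bands, near copies summed, the replicate block, and each mouse left out. Bands for ANIT, for vehicle mice and for the Cyp2a4 share were added after the data were seen.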

Additional observations from a re-analysis of the deposited data

Results flagged for a closer look

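In groups of 4 to 10 mice, a liver was picked out where its gap to the nearest other, as a part of the group's range, passed Dixon's 95% value. This happened in 9 of 35 groups tested. Chance gives about 1 in 20 for independent, normally distributed groups, but these levels are skewed and the 5 enzymes share mice, so the count is not set against that rate. All 9 were the highest liver of their group. For Cyp2a5, MDA mouse 2 held 5115 CPM (next 2662) and GAL mouse 2 held 702 CPM (next 256). TMM raised the values of MDA mouse 2, with an effective size of 11721378 from a total of 19038287 counts. Whether its gap passes under library totals was not tested. For Cyp2b10, ConA mouse 11 held 39.6 CPM (next 19.5) and GAL mouse 2 held 6.41 CPM (next 3.52). For Cyp2b9, MDA mouse 1 held 49.6 CPM (next 9.07). For Cyp2b13, ANIT mouse 4 held 3.58 CPM (next 0.710), ConA mouse 5 held 0.522 CPM (next 0.154), TAA mouse 3 held 0.319 CPM (the others at 0) and GAL mouse 2 held 0.0719 CPM (the others at 0). GAL mouse 2 is the highest GAL liver for all 5 enzymes and passed this value for 3 of them, and MDA mouse 1, high in Cyp2b9, is also the lowest MDA liver in Cyp2b10 at 88.1 CPM. For Cyp2b13, GAL mouse 2 rests on 2.05 estimated counts. Where all others are at 0, as there and for TAA mouse 3, any positive liver passes. Without GAL mouse 2 the change of Cyp2a5 against saline was -0.11 and that of Cyp2b9 -4.32 (adjusted p = 0.0123).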

How the results depend on the processing

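Of the values of single enzymes under alternatives other than leaving out a mouse, 534 kept direction and side of the threshold, 63 fell short of it, 19 newly passed it and 33 changed sign. With 1 mouse left out the numbers were 845, 40, 7 and 18. The causes were not tested. Cyp2b13 was too low to test in 3 of 7 comparisons with the route vehicle. For single enzymes, vehicle mice were not left out where gavage compounds met all vehicles. No paired analysis was possible for CCl4 and ConA against saline because each shares 1 number with its control. Several calls of the injected compounds rest on 2 saline mice, and a fit without 1 of these has 1 control liver.

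The number of enzymes called against the route vehicle changed by over 1.5 times as follows, and other alternatives moved it by at most 1. With APAP it fell from 2 to 1 with all groups in 1 fit, within numbers 1 to 4, within 5 to 12 and under the replicate block, and with TAA from 4 to 2 within numbers 1 to 4. With GAL it rose from 1 to 2 with DESeq2, limma, a mean of at least 5 CPM, the band covariate, numbers 5 to 12 and the replicate block, and to 3 with all groups in 1 fit. With ConA it fell from 4 to 2 with DESeq2 or no filter and to 1 with the band covariate or within numbers 5 to 12. Against all vehicles, it fell with APAP from 3 to 1 and with TAA from 4 to 2 within numbers 1 to 4. With MDA it fell from 5 to 3 with limma, no filter, the band covariate, either band and the replicate block. With GAL it rose from 3 to 5 under library totals, and with ConA it fell from 5 to 3 within numbers 5 to 12. Leaving out 1 mouse gave, against the route vehicle, 2 to 2 (ANIT), 1 to 2 (APAP), 3 to 5 (MDA), 4 to 4 (TAA), 1 to 3 (CCl4), 1 to 2 (GAL) and 1 to 5 (ConA), and against all vehicles 2 to 2, 2 to 3, 3 to 5, 4 to 4, 4 to 5, 3 to 3 and 5 to 5. Under the replicate block these calls against the route vehicle were not made: Cyp2b10 with ANIT (1.66, adjusted p = 0.167), Cyp2b9 with APAP (-1.24, 0.155), Cyp2a4 with MDA (-1.35, 0.223) and Cyp2a4 with TAA (2.56, 0.141). Against all vehicles they were Cyp2b10 with ANIT (1.66, 0.0697), Cyp2a4 with APAP (0.978), Cyp2a4 and Cyp2b13 with MDA (0.0678 and 0.277) and Cyp2a5 with CCl4 (0.60, 0.0811). Newly made against the route vehicle were Cyp2b9 with GAL (-5.16, 0.00720) and Cyp2a4 with ANIT (-2.58, 0.0256). The block left 1 NRF2 target gene higher and 1 male-biased and 1 pericentral gene lower with APAP, and 1 regulator and 3 CAR and PXR target genes higher with ANIT. Of the pairs of groups, 103 were called over the 5 enzymes, and 97 under library totals or with no filter.

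Sign changes against the route vehicle were the following log2 values. For ANIT, Cyp2b13 was 0.69 (DESeq2), 0.021 (limma) and 0.066 (replicate block), and Cyp2b9 0.12 (band covariate) and 0.10 (numbers 1 to 4). For APAP, Cyp2a5 was -1.54 (limma), -0.50 (numbers 5 to 12) and -0.99 (replicate block). For MDA, Cyp2a4 was 0.17 (numbers 5 to 12). For TAA, Cyp2a5 was 0.26 (copies summed) and 0.079 (numbers 1 to 4). For GAL, Cyp2a4 was -0.11 (band covariate) and -0.16 (numbers 5 to 12), and Cyp2a5 -0.13, -0.16 and, under the replicate block, -0.14. Against all vehicles, ANIT gave Cyp2b13 0.57 (DESeq2), 0.020 (limma) and 0.083 (replicate block) and Cyp2b9 0.12 (band covariate) and 0.10 (numbers 1 to 4). APAP gave Cyp2a4 -0.053 (replicate block) and Cyp2a5 -1.55 (limma), -0.0061 (band covariate), -0.49 (numbers 5 to 12) and -1.02 (replicate block). TAA gave Cyp2a5 0.27 (copies summed) and 0.079 (numbers 1 to 4). CCl4 gave Cyp2a4 0.028 (numbers 5 to 12) and Cyp2b10 -0.087 (copies summed). GAL gave Cyp2a5 -0.10 (limma), -0.61 (numbers 5 to 12) and -0.12 (replicate block). The Cyp2a4 share against the route vehicle changed sign with APAP (-0.49 points, numbers 1 to 4). Against all vehicles it did so with APAP (-0.49), GAL (-5.48) and ConA (-13.03), all in numbers 1 to 4.

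With 1 mouse left out, values that crossed 0 against the route vehicle ranged from -1.91 to 0.68 (Cyp2b13, ANIT), -0.64 to 0.32 (Cyp2b9, ANIT), -0.45 to 0.28 (Cyp2a5, APAP), -1.08 to 0.33 (Cyp2a4, CCl4) and -0.11 to 0.68 (Cyp2a5, GAL). Against all vehicles they ranged from -0.65 to 0.30 (Cyp2b9, ANIT), -0.46 to 0.27 (Cyp2a5, APAP), -0.48 to 0.30 (Cyp2a5, GAL) and -0.17 to 0.80 (Cyp2a4, GAL). The Cyp2a4 share ranged there from -2.85e-04 to 3.70 points with GAL and from -3.09 to 3.41 with ConA.

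Library totals in place of TMM shifted the median of all genes against the route vehicle to -0.23 (ANIT), 0.22 (APAP), 0.53 (CCl4), 0.84 (GAL) and -0.56 (ConA). The share of calls that were higher moved from 49.5% to 23.7%, from 54.3% to 72.5%, from 53.6% to 80.6%, from 44.9% to 86.7% and from 49.3% to 22.7%. Against all vehicles it moved from 48.1% to 22.2%, from 54.1% to 70.5%, from 49.1% to 80.5%, from 47.7% to 82.6% and from 50.4% to 25.1%. Over all genes, the calls against the route vehicle fell within numbers 1 to 4 from 3967 to 1688 (ANIT), 4436 to 824 (APAP), 4570 to 1292 (MDA) and 7247 to 2689 (TAA), and within numbers 5 to 12 to 2884 (APAP) and from 4827 to 3075 (ConA). The replicate block left 962 (ANIT), 230 (APAP) and 2600 (MDA), and a mean of at least 5 CPM left 4632 (TAA) and 3011 (ConA). Against all vehicles, numbers 1 to 4 left 1688 of 4043 (ANIT), 824 of 4774 (APAP), 1292 of 4759 (MDA), 2689 of 7330 (TAA) and 4463 of 8014 (GAL). In that band mouse 1 is the only CCl4 liver, so no CCl4 count is given. Numbers 5 to 12 left 3102 (MDA), and the replicate block left 1493 (ANIT), 1891 (APAP) and 4926 of 7582 (CCl4). A mean of at least 5 CPM left 4635 (TAA) and 5639 of 9384 (ConA).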
